A study of Mus musculus with 4 samples.

Results

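The aminoacyl-tRNA synthetases examined here are 36 genes, 20 encoding cytosolic enzymes and 16 encoding mitochondrial enzymes. They were chosen by name, as rows whose gene symbol equalled that of a synthetase, out of 23351 gene rows. Levels are in FPKM, fragment numbers scaled by transcript length and library depth. A gene counted as measured when its mean over the libraries reached 1 FPKM, which all 36 synthetases and 11201 genes altogether did. The study sequenced polyadenylated RNA of primary satellite cells, the muscle stem cells, derived from extensor digitorum longus, a hindlimb muscle. The mice were C57BL/6, aged 6 to 8 weeks, and the title places the study in young females. Cells of Control mice (2 libraries) were compared with cells of ERβ scKO mice (2 libraries), named for a knockout of estrogen receptor β. The allele, the Cre driver and the Cre status of the Control mice are not given in the sources used here. The design text speaks of triplicates, and 2 libraries of each group were analysed here. Nothing in the labels says whether the libraries of a group came from separate animals, so the p-values below measure only the spread between these libraries.

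An aminoacyl-tRNA synthetase joins an amino acid to the tRNA that carries its anticodon, the step at which the genetic code is read into protein. The cytosol and the mitochondrion each need enzymes of this kind. In mammals most mitochondrial enzymes are encoded by nuclear genes of their own, whose symbols end in the digit 2 as in Lars2, while Gars and Kars each supply both compartments from 1 gene. Several cytosolic enzymes are held in the multisynthetase complex, and many cytosolic synthetase genes are known targets of ATF4, the transcription factor of the integrated stress response, through a promoter element called the amino acid response element. Dividing satellite cells make protein and mitochondria at a high rate, and both sets of enzymes serve that synthesis.

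Esr2, which encodes estrogen receptor β, had 0.234 and 0.202 FPKM in Control and was listed at 0 in both ERβ scKO libraries. Those Control values are below the 0.349 and 0.3002 FPKM that 3 fragments would give at the estimated depths, so Esr2 does not check the labels here. From the spacing of low FPKM values the libraries were estimated to hold about 2700000 to 3100000 fragments each, which is shallow. The depths are estimates, and fragment numbers below follow from them. Satellite cell and myoblast markers (Pax7, Myf5, Myod1, Myog, Des, Cdh15 and Vcam1) were all measured, and their summed level ran from 1443 to 1523 FPKM over the 4 libraries. The sum does not show each marker. Myog was higher in both ERβ scKO libraries, at 494 and 621.4 FPKM in Control against 622.5 and 660 FPKM in ERβ scKO. It was the only 1 of the 7 higher without overlap, against 18.3% of all genes, and 0 were lower without overlap.

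The promoter sequences of 5 cytosolic synthetases and of Lars2 are printed here, the first because they hold the amino acid response element and the last because Lars2 showed the largest difference of the 36 genes. RefSeq promoters (build GRCm38.p6, 250 bases before to 50 after the annotated start) matched 26 of the 36 genes, and Nars, Pars2, Lars, Rars, Vars, Hars2, Cars, Hars, Mars and Wars were not matched. Each is written 5′ to 3′ in the direction of transcription, with letters that match TGATGNAA on either strand in capitals. The windows are chr8:111033592-111033891 on the plus strand for Aars, chr6:55037751-55038050 on the plus strand for Gars and chr13:49681880-49682179 on the plus strand for Iars. Those of the other genes are chr15:11399609-11399908 on the minus strand for Tars, chr4:129189653-129189952 on the plus strand for Yars and chr9:123366677-123366976 on the plus strand for Lars2.
Aars: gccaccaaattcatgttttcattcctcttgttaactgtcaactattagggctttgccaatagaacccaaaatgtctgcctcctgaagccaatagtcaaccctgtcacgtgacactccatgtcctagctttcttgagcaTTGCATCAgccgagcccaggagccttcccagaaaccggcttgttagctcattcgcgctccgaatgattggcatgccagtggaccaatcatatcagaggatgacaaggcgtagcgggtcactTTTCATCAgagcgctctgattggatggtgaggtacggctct
Gars: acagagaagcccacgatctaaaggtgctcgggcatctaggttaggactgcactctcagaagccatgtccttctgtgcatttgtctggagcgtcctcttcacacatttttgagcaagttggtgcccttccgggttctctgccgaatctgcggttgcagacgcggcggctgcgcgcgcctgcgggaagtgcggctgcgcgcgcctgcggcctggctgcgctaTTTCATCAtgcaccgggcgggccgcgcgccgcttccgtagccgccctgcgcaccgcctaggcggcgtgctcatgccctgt
Iars: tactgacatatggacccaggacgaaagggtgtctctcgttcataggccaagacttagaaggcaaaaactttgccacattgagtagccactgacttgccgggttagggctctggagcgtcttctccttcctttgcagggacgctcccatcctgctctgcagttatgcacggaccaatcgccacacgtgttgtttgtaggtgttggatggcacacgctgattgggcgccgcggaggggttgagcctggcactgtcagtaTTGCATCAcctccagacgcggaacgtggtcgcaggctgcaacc
Tars: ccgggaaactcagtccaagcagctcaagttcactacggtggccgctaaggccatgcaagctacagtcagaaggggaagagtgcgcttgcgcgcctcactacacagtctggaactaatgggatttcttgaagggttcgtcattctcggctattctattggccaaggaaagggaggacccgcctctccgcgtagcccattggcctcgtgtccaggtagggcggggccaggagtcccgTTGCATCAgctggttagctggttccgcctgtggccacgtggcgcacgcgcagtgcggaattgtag
Yars: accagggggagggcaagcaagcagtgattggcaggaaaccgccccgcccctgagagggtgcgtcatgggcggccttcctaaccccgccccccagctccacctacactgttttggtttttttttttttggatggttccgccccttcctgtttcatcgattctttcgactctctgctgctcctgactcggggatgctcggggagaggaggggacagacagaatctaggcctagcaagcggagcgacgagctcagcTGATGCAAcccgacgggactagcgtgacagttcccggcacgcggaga
Lars2: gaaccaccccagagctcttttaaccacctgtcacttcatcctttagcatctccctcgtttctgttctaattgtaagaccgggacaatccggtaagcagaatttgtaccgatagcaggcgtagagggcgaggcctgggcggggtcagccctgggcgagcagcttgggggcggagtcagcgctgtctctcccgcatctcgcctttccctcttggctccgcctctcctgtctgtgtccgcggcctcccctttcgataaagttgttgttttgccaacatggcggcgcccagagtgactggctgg

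The match began 3 bases after the annotated start in Yars, 7 bases after it in Iars, 15 bases before it in Tars and 30 bases before it in Gars. Aars held 2 matches, which began 112 bases before the start and 9 bases after it. The element was present for 5 of the 12 cytosolic genes with a promoter (41.7%) and for 0 of the 14 mitochondrial ones. It was present for 1219 of 27025 genes with a RefSeq promoter (4.51%), whether measured here or not. The palindromic estrogen response element, GGTCANNNTGACC, had no match for any of the 26 genes and was found for 20 of the 27025 (0.074%). A match is a description of letters, and its absence says only that these letters are not in this window.

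In level, the cytosolic genes stood above the mitochondrial ones. The mean over the 4 libraries ran from 33.7 to 234 FPKM for the cytosolic genes, with a median of 65.9, and from 2.62 to 55.2 FPKM for the mitochondrial genes, with a median of 7.11. Nars (asparaginyl-tRNA synthetase) stood highest, at 225 and 247 FPKM in Control against 232 and 234 FPKM in ERβ scKO. Gars (glycyl-tRNA synthetase, used in both compartments) followed, at 191 and 199.7 FPKM in Control against 179.9 and 194 FPKM in ERβ scKO. The 2 groups overlapped for both of these genes, so that the 2 most abundant synthetase transcripts showed no separation by genotype. Kars, next in level, was lower in both ERβ scKO libraries. The log2 difference of Nars, ERβ scKO minus Control on the log2(FPKM + 1) scale used throughout, was -0.02 with a 95% interval from -0.26 to 0.22, and that of Gars was -0.06 with an SE of 0.10.

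**Figure D1:**
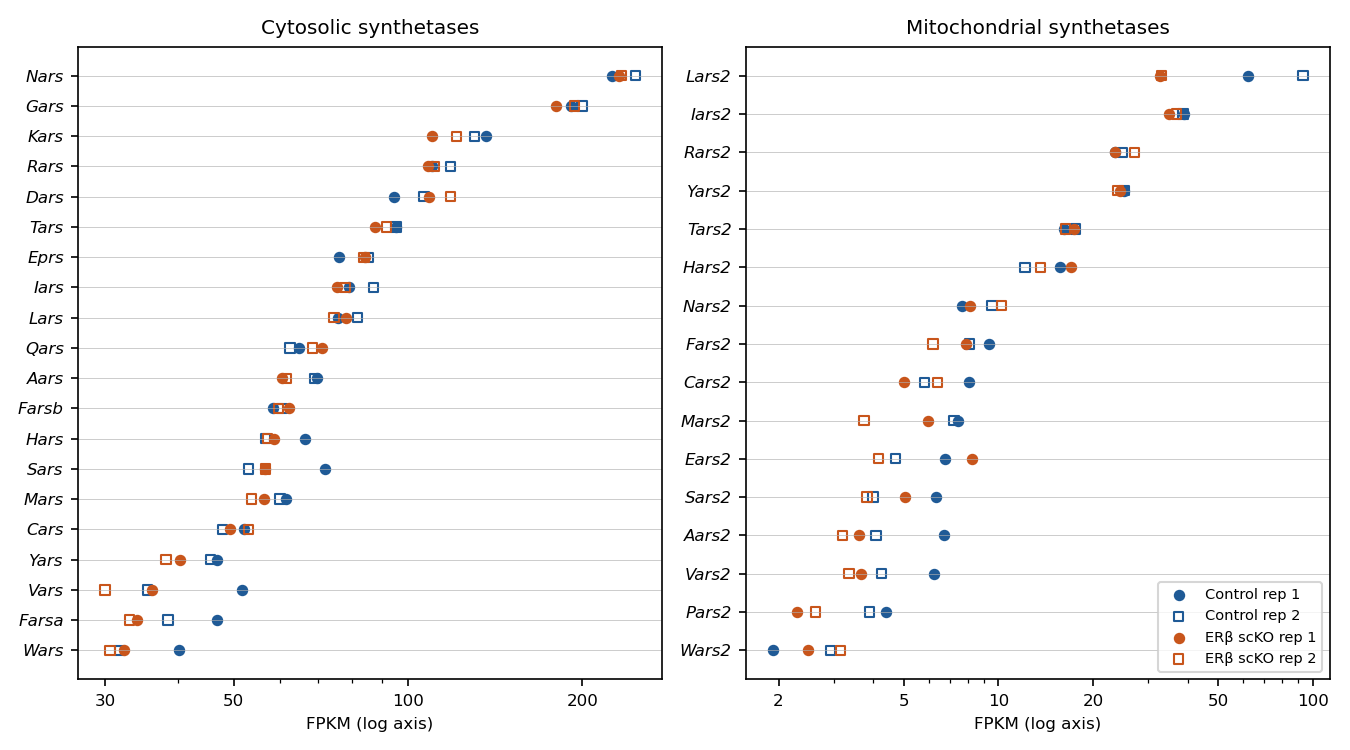
FPKM (log axis) of the 36 synthetases in each library, cytosolic and mitochondrial genes apart, with 1 point per library and Control and ERβ scKO in different colours. Nars and Gars lead the cytosolic genes, and among the mitochondrial genes Lars2 leads in Control and lies near Iars2 in ERβ scKO.

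Among the mitochondrial genes Lars2 (leucyl-tRNA synthetase), Iars2 (isoleucyl), Rars2 (arginyl) and Yars2 (tyrosyl) were the most abundant. Iars2 stood at 38.9 and 38.6 FPKM in Control against 34.8 and 36.8 FPKM in ERβ scKO, a difference of -0.11 in log2 with both ERβ scKO libraries below both Control libraries. Rars2 stood at 23.6 and 24.8 FPKM in Control against 23.5 and 27.1 FPKM in ERβ scKO, so its groups overlapped, with a log2 difference of 0.06. Wars2 (tryptophanyl) was the lowest of the 36, with 1.92 and 2.93 FPKM in Control and 2.48 and 3.15 FPKM in ERβ scKO, or an estimated 22 to 42 fragments a library. The estimated fragments per gene and library ran from 167 to 2006 for cytosolic and from 19 to 1091 for mitochondrial genes, ranges that overlap. The median SE of the log2 difference was 0.10 for the cytosolic genes and 0.20 for the mitochondrial genes. The differences of low mitochondrial genes are accordingly less certain than those of the cytosolic genes.

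Most synthetases had a somewhat lower mean in ERβ scKO, by amounts that did not pass the test over all genes. Of the 20 cytosolic genes 15 had a lower mean on the log2 scale (as in all such counts below), and of the 16 mitochondrial genes 10 did, where 50.7% of all measured genes had a lower mean. Both ERβ scKO libraries lay below both Control libraries for 7 cytosolic genes (Aars, Farsa, Iars, Kars, Mars, Tars and Yars) and for 8 mitochondrial genes (Aars2, Fars2, Iars2, Lars2, Mars2, Pars2, Vars2 and Yars2), against 18.3% of all genes. Both lay above both Control libraries for 2 cytosolic genes, Dars and Qars, and for 0 mitochondrial genes, against 18.3% of all genes. The median log2 difference was -0.08 for the cytosolic genes and -0.14 for the mitochondrial genes, and -0.004 over all measured genes. In these bulk libraries fewer cells with a transcript and less of it per cell cannot be told apart.

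Tested over all 11201 genes with limma and Benjamini-Hochberg adjustment, no synthetase passed an adjusted p of 0.05. The 4 genes that passed, 0.0357% of those tested, were 3 small nucleolar RNAs and Rn45s, the ribosomal RNA precursor. Without adjustment, limma's p was under 0.05 for 0 of 20 cytosolic and 2 of 16 mitochondrial synthetases (Lars2 and Pars2). Over all genes it was under 0.05 for 518 of 11201. In the authors' deposited table no gene of 9426 tested had a q under 0.05, and p was under 0.05 and lower in ERβ scKO for Lars2, Aars2 and Vars among the 35 synthetases tested, against 1.92% of all genes tested. In the same deposited table of the authors, p was under 0.05 and higher for 1.33% of all genes and for 0 synthetases.

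**Figure D2:**
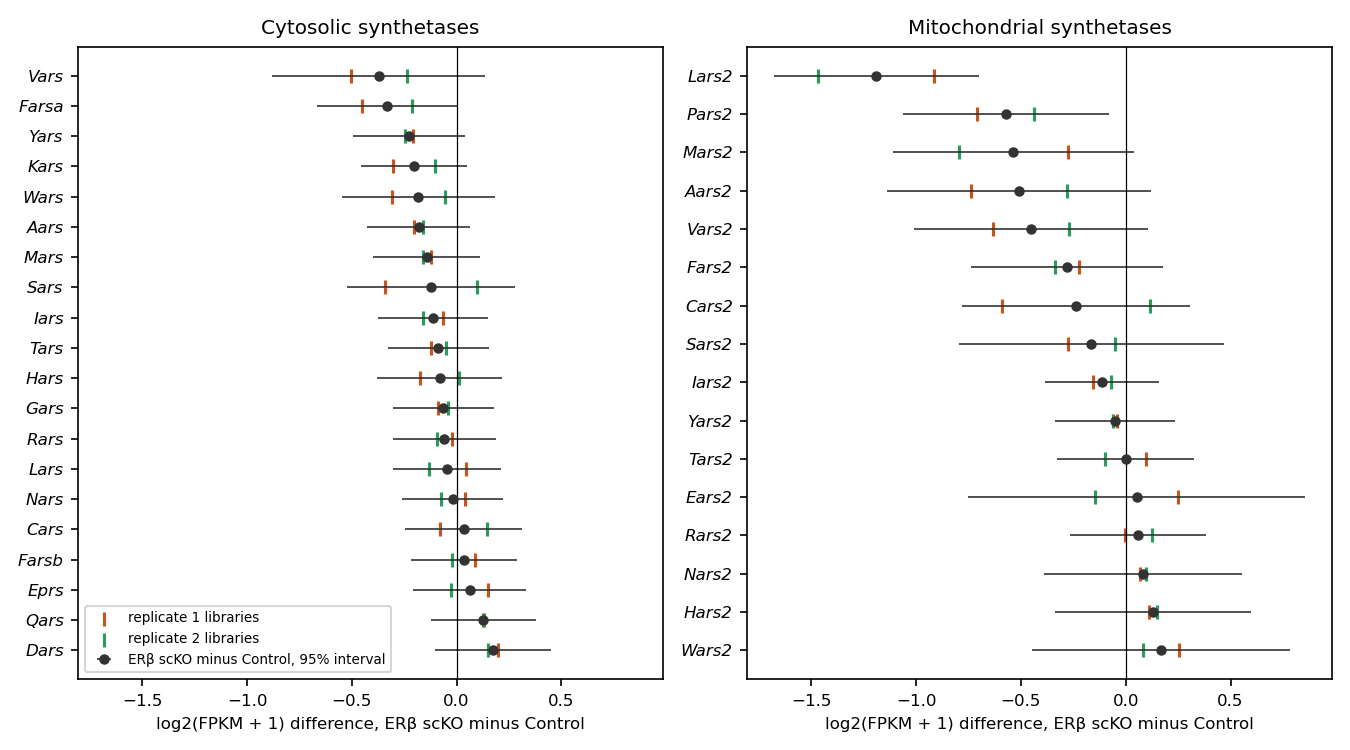
Log2 difference, ERβ scKO minus Control on the log2(FPKM + 1) scale, of each of the 36 synthetases, with bars for the 95% interval of the limma fit, coloured ticks for the difference within libraries of the same number, and the cytosolic and mitochondrial genes apart. The intervals of Lars2 (-1.68 to -0.70) and Pars2 (-1.06 to -0.08) leave out 0, and those of all other members include it.

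Summed over each set, the cytosolic synthetases gave 1714 and 1712 FPKM in Control and 1622 and 1649 FPKM in ERβ scKO. The mitochondrial synthetases gave 247 and 266 FPKM in Control and 202 and 198 FPKM in ERβ scKO. Both sums were lower in ERβ scKO without overlap, and the mitochondrial one by the larger share. Lars2 by itself made up 25.3% and 35.01% of the mitochondrial sum in Control and 16.1% and 16.7% in ERβ scKO. Without Lars2 the mitochondrial sum was 184 and 173 FPKM in Control and 169 and 165 FPKM in ERβ scKO, so that most of the difference of the sum lay in this gene. The median log2 difference of the other 15 mitochondrial genes was -0.11.

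Lars2, which charges the mitochondrial leucine tRNAs, showed the largest difference of all 36 genes. It was at 62.3 and 93.1 FPKM in Control, or 77.7 ± 21.8 (SD, n = 2), and at 32.6 and 33.0 FPKM in ERβ scKO, or 32.8 ± 0.311 (SD, n = 2). Both ERβ scKO libraries were close to each other and lay below both Control libraries, which themselves differed by 0.57 in log2. The mean in ERβ scKO was 42.3% of the Control mean. The log2 difference was -1.19 with an SE of 0.20 and a 95% interval from -1.68 to -0.70, with an unadjusted limma p of 0.0011 and an adjusted p of 0.837, so it did not pass over all genes. The authors' deposited table gives a p of 5e-05 and a q of 0.0589 to Lars2, and the same values to Rn45s and to Col1a1, a fibroblast marker. The groups of Col1a1 overlapped, at 18.7 and 0.909 FPKM in Control against 2.09 and 1.40 FPKM in ERβ scKO. The deposited log2 fold change of Lars2 was -1.24. With Control replicate 1 left out the difference was -1.48 with an adjusted limma p of 0.0449, and with Control replicate 2 left out it was -0.90 with an adjusted p of 0.167. In such a fit the lone Control library is assumed to vary like the ERβ scKO libraries, from which alone the spread is taken, and for Lars2 those were much closer to each other than the Control libraries were, so that p is no firm call.

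Its cytosolic counterpart Lars, a member of the multisynthetase complex that also senses leucine for the mTORC1 pathway, showed no such separation. Lars stood at 75.7 and 81.7 FPKM in Control against 78.1 and 74.5 FPKM in ERβ scKO, with overlapping groups and a log2 difference of -0.04. The ratio of Lars to Lars2 was therefore 1.22 and 0.878 in Control and 2.39 and 2.25 in ERβ scKO. Both ERβ scKO ratios lay above both Control ratios. The ratio was not tested.

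A short stretch in the 3′ untranslated region of the Lars2 transcript is also present in Gm15564, an annotated long noncoding RNA of chromosome 16. By 50-base windows, 3 of 3845 windows of the longest coding Lars2 transcript (0.078%), at transcript positions 3278 to 3329, were also found in Gm15564. The sequence of the ribosomal RNA precursor was not used here, so how much of Lars2 it shares was not measured. Rn45s, that precursor, stood at 213 and 258 FPKM in Control against 63.9 and 68.7 FPKM in ERβ scKO, a log2 difference of -1.81 with an SE of 0.13 and an adjusted limma p of 0.0300, one of the 4 genes that passed. Rn45s and Lars2 were thus both lower in both ERβ scKO libraries, with Rn45s by the larger factor. An added comparison, chosen after the values were seen, took levels as a share of the Rn45s level. By it Lars2 was at 29.2% and 36.02% in Control against 51.0% and 48.1% in ERβ scKO. Lars, whose groups overlapped, was at 35.5% and 31.6% in Control against 122% and 108% in ERβ scKO. Such a share rises when Rn45s falls, also for a gene that does not differ. It therefore cannot say how far Lars2 follows Rn45s. Ribosomal RNA is what selection for polyadenylated RNA is meant to remove, and the part of Rn45s in the Lars2 difference was not tested. Malat1 and Neat1, nuclear long noncoding RNAs, differed the other way, with log2 differences of 0.83 and 0.67.

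**Figure D3:**
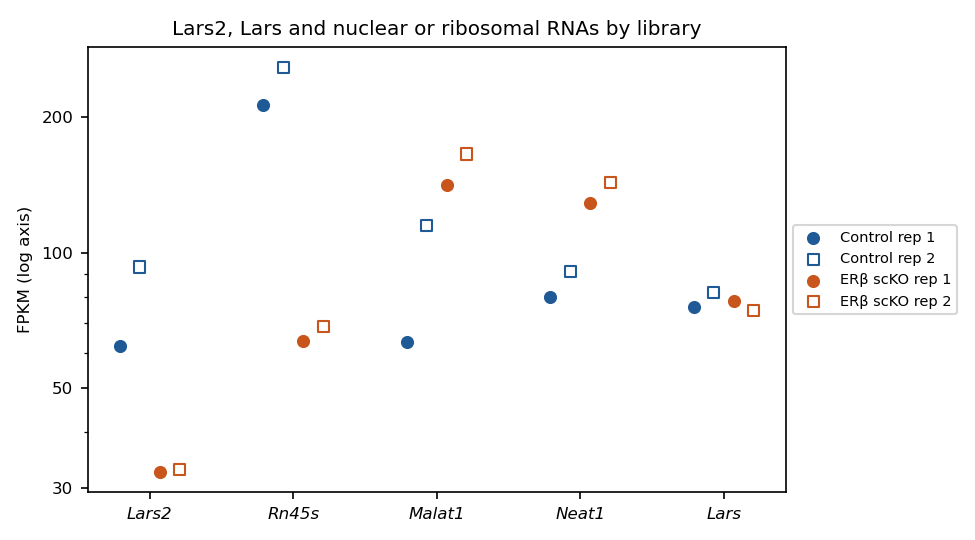
FPKM (log axis) of Lars2, Rn45s, Malat1, Neat1 and Lars in each of the 4 libraries, with circles for libraries numbered 1 and squares for those numbered 2. Both ERβ scKO points lie below both Control points for Lars2 and Rn45s and above them for Malat1 and Neat1, and Lars overlaps between the groups.

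Of the other mitochondrial genes, Pars2 (prolyl), Mars2 (methionyl), Aars2 (alanyl), Vars2 (valyl) and Fars2 (phenylalanyl) had the largest differences, and none of them passed after adjustment. Pars2 stood at 4.39 and 3.89 FPKM in Control against 2.30 and 2.62 FPKM in ERβ scKO, from an estimated 34, 35, 19 and 24 fragments. Its groups did not overlap, and its log2 difference was -0.57 with an SE of 0.20, a 95% interval from -1.06 to -0.08 and an unadjusted limma p of 0.0294 (adjusted p = 0.837). Prolyl-tRNA in the cytosol is made by Eprs, which joins glutamyl and prolyl activities in 1 protein. Eprs stood at 75.9 and 85.5 FPKM in Control against 84.3 and 83.9 FPKM in ERβ scKO, an overlap with a log2 difference of 0.06. The ratio of Eprs to Pars2 was 19.6 ± 3.30 in Control and 34.4 ± 3.28 in ERβ scKO (SD, n = 2).

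Aars2 stood at 6.70 and 4.08 FPKM in Control against 3.61 and 3.19 FPKM in ERβ scKO. Vars2 stood at 6.22 and 4.24 FPKM in Control against 3.65 and 3.35 FPKM in ERβ scKO. For both genes Control replicate 1 stood well above the other 3 libraries, while Control replicate 2 lay just above the ERβ scKO values. The log2 difference was -0.51 (SE 0.25) for Aars2 and -0.45 (SE 0.23) for Vars2, and the authors' deposited table gives p values of 0.0472 and 0.0544. Mars2 showed another pattern, at 7.45 and 7.23 FPKM in Control against 5.98 and 3.74 FPKM in ERβ scKO. Here the Control libraries were close and the ERβ scKO libraries were not, with a log2 difference of -0.54 (SE 0.23), which was -0.26 without ERβ scKO replicate 2 and -0.82 with replicate 1 of that group left out. Fars2 stood at 9.37 and 8.09 FPKM in Control against 7.88 and 6.20 FPKM in ERβ scKO, a log2 difference of -0.28, which was -0.13 without ERβ scKO replicate 2 and -0.43 with replicate 1 of that group left out. Without Control replicate 1 the differences of Aars2 and Vars2 were -0.21 and -0.22.

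The remaining mitochondrial genes showed small differences in both directions. Yars2 was nearly constant, between 24.0 and 25.08 FPKM in the 4 libraries, with a log2 difference of -0.05 and no overlap. Tars2 (threonyl) was between 16.1 and 17.6 FPKM, with a log2 difference of 0.00 and overlapping groups. Cars2 (cysteinyl) and Sars2 (seryl) had log2 differences of -0.24 and -0.16, and Ears2 (glutamyl), Nars2 (asparaginyl), Hars2 (histidyl) and Wars2 had differences of 0.05, 0.08, 0.13 and 0.17. The groups of all 6 of these overlapped. Ears2 stood at 6.78 and 4.72 FPKM in Control against 8.26 and 4.16 FPKM in ERβ scKO, and Hars2 at 15.7 and 12.1 FPKM in Control against 17.1 and 13.6 FPKM in ERβ scKO. For both, the libraries numbered 1 lay above the libraries numbered 2 whatever the genotype, while Nars2 lay the other way, at 7.69 and 9.53 FPKM in Control against 8.10 and 10.2 FPKM in ERβ scKO. The mitochondrion makes its glutaminyl-tRNA by transamidation rather than with a synthetase of its own, and of the 4 genes listed for transamidation and formylation of mitochondrial tRNAs 3 had a higher mean, with a median log2 difference of 0.11 and none called by limma.

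**Figure D4:**
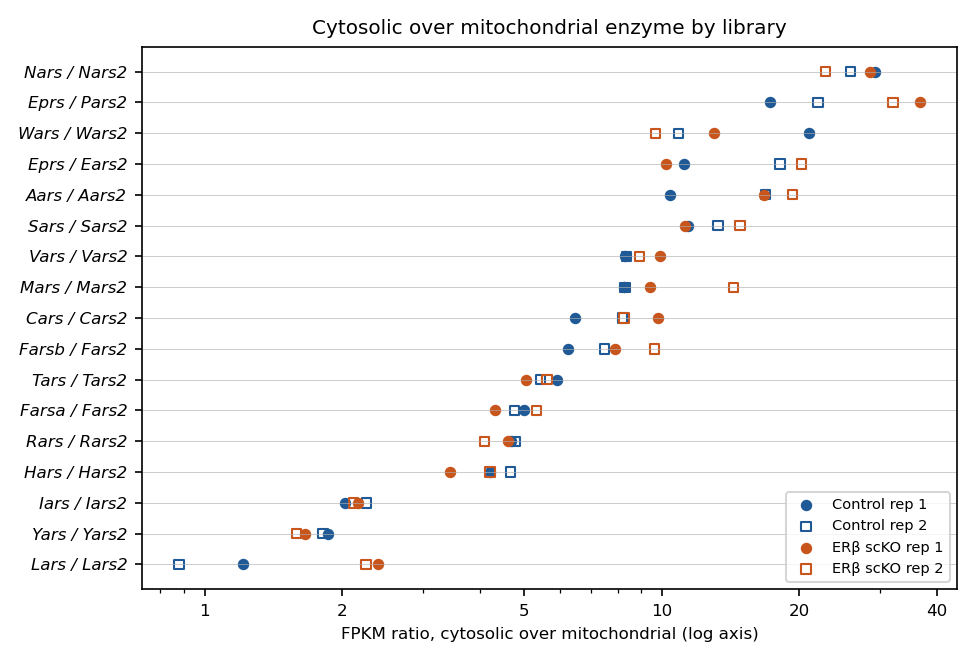
Cytosolic against mitochondrial level of the synthetases for the same amino acid, as the ratio of FPKM values on a log axis, 1 point per library and 17 gene pairs. The ratio lies higher in both ERβ scKO libraries for 6 pairs (Lars to Lars2, Eprs to Pars2, Cars to Cars2, Farsb to Fars2, Mars to Mars2 and Vars to Vars2), lower in both for 3 (Hars to Hars2, Rars to Rars2 and Yars to Yars2), and overlaps for 8. Some separations are narrow: the nearest Control and ERβ scKO ratios are 8.19 and 8.27 for Cars to Cars2, 4.213 and 4.206 for Hars to Hars2, and 4.68 and 4.61 for Rars to Rars2. Eprs and Fars2 each enter more than 1 pair. No share over all genes is available for such ratios, and these counts were not tested.

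Among the cytosolic enzymes, the phenylalanyl-tRNA synthetase is made of 2 kinds of subunit, Farsa and Farsb. Farsa, the catalytic subunit, stood at 46.9 and 38.5 FPKM in Control against 34.0 and 33.0 FPKM in ERβ scKO, with no overlap. Its log2 difference was -0.33 with an SE of 0.14 and a 95% interval from -0.67 to 0.002, and it had the lowest unadjusted limma p of the cytosolic genes, 0.0509. Farsb stood at 58.5 and 60.6 FPKM in Control against 62.3 and 59.7 FPKM in ERβ scKO, so the transcripts of the partner subunit overlapped between the groups, with a log2 difference of 0.03. Vars (valyl) had the lowest log2 difference, -0.37 with an SE of 0.21, and the authors' deposited table gives it a p of 0.04795. It stood at 51.8 and 35.4 FPKM in Control against 36.2 and 29.9 FPKM in ERβ scKO. The groups of Vars overlapped, since 1 ERβ scKO library lay above Control replicate 2. Its value rests on Control replicate 1, being -0.10 without that library and -0.64 without Control replicate 2, and that of Farsa was -0.19 without Control replicate 1.

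Yars (tyrosyl) stood at 46.7 and 45.5 FPKM in Control against 40.4 and 38.2 FPKM in ERβ scKO, a log2 difference of -0.23 with an SE of 0.11. Kars (lysyl, in both compartments and in the complex) stood at 136 and 130.3 FPKM in Control against 110.1 and 121 FPKM in ERβ scKO, a difference of -0.20 with an SE of 0.10. Aars (alanyl) stood at 69.7 and 68.9 FPKM in Control against 60.5 and 61.6 FPKM in ERβ scKO, a difference of -0.18 with an SE of 0.10. The groups did not overlap in any of the 3, and the replicates of each group were close in Yars and Aars, while the ERβ scKO replicates of Kars lay farther apart than the groups did at their nearest. Dars (aspartyl) lay the other way, at 94.7 and 107 FPKM in Control against 109 and 118 FPKM in ERβ scKO, a difference of 0.17 with an SE of 0.11. Qars (glutaminyl) was likewise higher in both ERβ scKO libraries, 69.7 ± 1.88 against 63.7 ± 1.63 FPKM (SD, n = 2). Adjusted limma p-values of the 36 genes ran from 0.837 to 0.999, so none of these separations passed.

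The other cytosolic genes had log2 differences between -0.18 and 0.03. Iars (isoleucyl), at 78.9 and 87.1 FPKM in Control against 75.5 and 77.8 FPKM in ERβ scKO, had a difference of -0.11. Mars (methionyl), at 61.6 and 60.1 FPKM in Control against 56.4 and 53.6 FPKM in ERβ scKO, had -0.14. Tars (threonyl), at 95.3 FPKM in both Control libraries against 87.5 and 91.9 FPKM in ERβ scKO, had -0.09. In each of the 3 both ERβ scKO values lay below both Control values, by a margin that was narrowest for Iars. Wars (tryptophanyl), Sars (seryl), Hars (histidyl), Rars (arginyl) and Cars (cysteinyl) had differences of -0.18, -0.12, -0.08, -0.06 and 0.03 with overlapping groups. Sars stood at 72.0 and 53.1 FPKM in Control against 56.6 and 56.7 FPKM in ERβ scKO, and Wars at 40.2 and 31.8 FPKM in Control against 32.3 and 30.5 FPKM in ERβ scKO. In both, Control replicate 1 was high and the other 3 libraries were alike, a pattern that Hars shared at 66.3 FPKM in Control replicate 1 and 56.7 to 58.7 FPKM elsewhere. Of the 8 genes for enzymes of the multisynthetase complex (Dars, Eprs, Iars, Kars, Lars, Mars, Qars and Rars), 5 had a lower mean and the median log2 difference was -0.05. Of the 12 cytosolic genes outside the complex 10 had a lower mean, with a median of -0.10. By structural class the medians were -0.11 for 9 cytosolic genes of class I and -0.08 for 10 of class II, with Eprs in both classes. These medians are descriptions and carry no test.

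The scaffold proteins of the complex are encoded by Aimp1, Aimp2 and Eef1e1. Aimp1 was at 82.0 ± 1.28 FPKM in Control and 84.8 ± 1.53 FPKM in ERβ scKO. Eef1e1 was at 71.9 ± 7.13 and 81.3 ± 0.457 FPKM, and Aimp2 at 46.1 ± 9.69 and 43.1 ± 5.11 FPKM (SD, n = 2 each). Aimp1 and Eef1e1 were higher in both ERβ scKO libraries, where 18.3% of all genes were, and none of the 3 was called. For Aimp1 the separation was narrow, with 82.9 FPKM in Control replicate 2 and 83.7 FPKM in ERβ scKO replicate 1. Of the 7 genes listed for delivery of charged tRNA to the ribosome 6 were measured, with a median log2 difference of -0.07. They include Eef1a1, the elongation factor that carries charged tRNA, with a log2 difference of 0.17, and Eef1d, an exchange factor for it, with -0.18. Of 7 genes for editing of mischarged tRNA, synthetase paralogs and tRNA handling 6 had a higher mean, with a median of 0.07 and none called.

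The genes of the ATF4 response and amino acid supply, 24 in number and all measured, were read beside the promoter element. Of these 18 had a lower mean. Without overlap, 11 of the 24 were lower and 4 higher, against 18.3% of all genes in each direction, and the median log2 difference was -0.14 with none called by limma. Atf4 itself stood at 271 and 269 FPKM in Control against 253 and 252 FPKM in ERβ scKO, a log2 difference of -0.10. Phgdh and Psat1, enzymes of serine synthesis, had differences of -0.37 and -0.18, while Asns (asparagine synthetase) had -0.02 and Ddit3, the stress factor CHOP, 0.45. Phgdh stood at 254 and 185 FPKM in Control against 180 and 156 FPKM in ERβ scKO, with Control replicate 1 well above the rest. The Control libraries of Psat1 lay closer, at 163 and 157 FPKM against 147 and 135 FPKM in ERβ scKO. Control replicate 1 gave the top level for 15 genes on this list, a rank it held for 34.3% of the measured genes. Ddit3 overlaps Mars in the genome. The 5 cytosolic synthetases with the promoter element all had a lower mean, from -0.23 to -0.06 in log2, and 4 of them showed no overlap. Of the 7 cytosolic synthetases with a promoter and no match, 3 had a lower mean, 2 of them without overlap (Farsa and Kars), with differences from -0.33 to 0.17 over the 7. Over all genes 18.3% were lower without overlap. The difference between these 2 small sets was not tested.

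The mitochondrial ribosome translates with the tRNAs that the mitochondrial synthetases charge. Of 76 mitochondrial ribosomal protein genes, all measured, 55 had a lower mean, and the median log2 difference was -0.12. Both ERβ scKO libraries lay below both Control libraries for 24 of the 76 and above them for 6, where 18.3% of all genes did each. None was called by limma. Mrps17 had the lowest of these differences, at 50.3 and 48.0 FPKM in Control against 32.9 and 32.1 FPKM in ERβ scKO, -0.58 in log2, and the authors' deposited table gives it a p of 0.0159. That median stands beside -0.14 for the mitochondrial synthetases.

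Control replicate 1 held the highest of the 4 values for many of these genes, by margins that differed. It was highest in 9 cytosolic and 9 mitochondrial synthetases, against 34.3% of all measured genes, and in 44 of the 76 mitochondrial ribosomal protein genes. In some of these synthetases Control replicate 2 lay close behind, as in Yars2 (25.08 and 25.07 FPKM) and Aars (69.7 and 68.9 FPKM). In others, such as Vars (51.8 and 35.4 FPKM), it lay well below. Lars2 was highest in Control replicate 2. Within libraries numbered 1 the median log2 difference was -0.10 for the cytosolic and -0.19 for the mitochondrial genes, and within those numbered 2 it was -0.07 and -0.08. With Control replicate 1 left out the mitochondrial median was -0.06. Control replicate 1 also had the highest summed level of 7 fibroblast markers. The sum was 113 and 61.0 FPKM in Control and 64.6 and 50.4 FPKM in ERβ scKO. Lum was at 0 in every library, and the 6 measured all had a log2 difference below 0. Most of the sum was Col1a2, at 78.3 and 54.1 FPKM in Control and 50.3 and 44.1 FPKM in ERβ scKO. Col1a1, Dcn, Pdgfra, Postn and Thy1 were higher in both libraries numbered 1 than in both numbered 2. Dcn was highest in ERβ scKO replicate 1, at 2.36 FPKM against 1.96 FPKM in Control replicate 1. Endothelial markers summed to 1.05 to 2.995 FPKM (0 of 4 measured), macrophage markers to 0.757 to 2.89 FPKM with Emr1 at 0 in every library (1 of 4 measured), Schwann cell markers to 0.427 to 1.87 FPKM (1 of 3) and pericyte markers to 55.8 to 71.8 FPKM (3 of 3). The part of these cells in the synthetase differences was not tested.

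The differences of the synthetases also varied with the base composition of their transcripts. Across the 36 genes the log2 difference and the GC content of the transcript had a Pearson r of -0.33 and a Spearman rho of -0.54, so that GC-rich synthetases tended to lower values in ERβ scKO. Across the 20 cytosolic genes r was -0.74 and rho -0.69, across the 16 mitochondrial genes r was -0.21 and rho -0.37, and across 10522 measured genes r was -0.24 and rho -0.34. These are correlations across genes that share the same 4 libraries, and genes are not independent replicates. The GC content of Mars2 is uncertain, since the annotated transcript is longer than the deposited locus, and without it r was -0.48. After removal of each library's GC trend the log2 difference of Vars was -0.20, that of Aars2 -0.36 and that of Dars 0.06, while Lars2 was at -1.18 and Pars2 at -0.56. The medians with the trend removed were -0.10 for the cytosolic and -0.11 for the mitochondrial genes. The part of GC content in the differences was not tested beyond this.

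**Figure D5:**
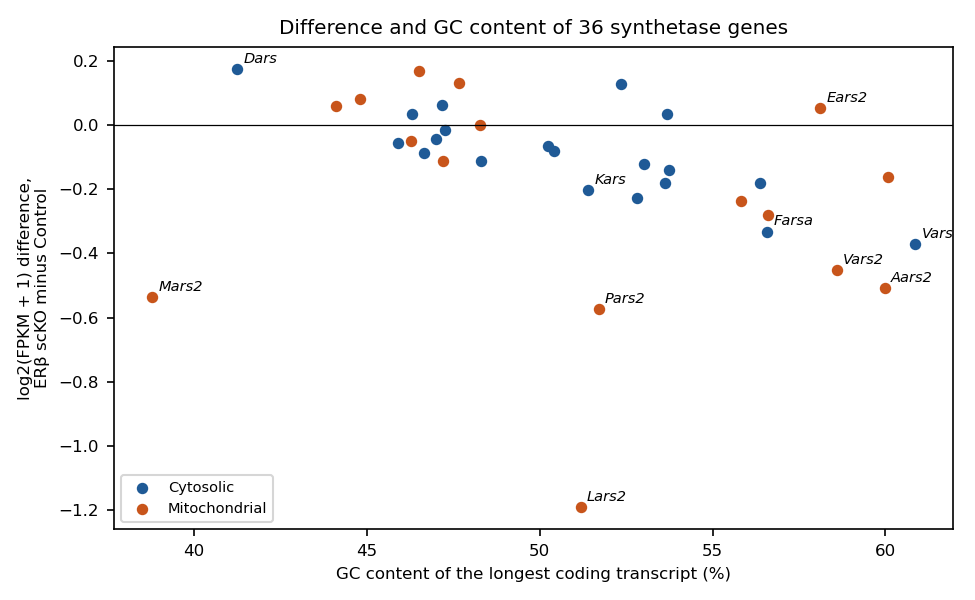
Log2 difference (ERβ scKO minus Control, log2(FPKM + 1) scale) against transcript GC content in percent, 1 point per synthetase, cytosolic and mitochondrial genes in different colours. Cytosolic genes with more GC lie lower (r = -0.74 across 20 genes), and Lars2 lies apart from the rest at -1.19.

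Some synthetases share sequence or position with other genes, and the deposited values do not say how such reads were assigned. By 50-base windows, 22.4% of the Aars transcript was also found in transcripts of Exosc6 on the same strand, and 8.61% of Iars in Gm4849. Iars2 shared 36.6% of its windows with Rab3gap2 on the opposite strand, Cars2 17.8% with Naxd and Farsb 10.1% with Sgpp2. The library kit keeps strand, and whether strand was used in counting is not given in the sources used here. Exosc6 was at 18.1 ± 2.33 FPKM in Control and 14.0 ± 3.18 FPKM in ERβ scKO (SD, n = 2), so its direction was that of Aars. Rab3gap2 was at 15.4 ± 1.30 and 16.3 ± 0.376 FPKM, with overlapping groups and a mean that lay the other way from Iars2. Values of these 5 synthetases are uncertain to that extent. Smaller shares on the opposite strand were found for other synthetases, among them 7.53% of Hars, 4.44% of Hars2 and 6.3% of Nars2.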

How the data were processed

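Polyadenylated RNA of 2 Control and 2 ERβ scKO libraries was sequenced, and TopHat and Cufflinks with mouse build mm10 are named, per the submitters' processing notes, with no versions. The authors deposited 1 gene table with FPKM per library, a log2 fold change, a p-value and a q-value per gene. Here FPKM values were taken as deposited, and the genes averaging 1 FPKM or more were fitted with limma 3.58.1 (R 4.3.3) after conversion to log2(FPKM + 1). The variance followed a trend on level, with a two-sided test and Benjamini-Hochberg adjustment at 0.05. A fold change on this scale understates that of low genes. The fit was tested on simulated data, with independent values and shifts larger than any synthetase difference here. That test does not show how the fit does at differences of the size seen here. No counts are given, so depth was estimated from the spacing of low FPKM values, with fragments of 150 bases assumed. Values in every library are given for the 6 synthetases with the lowest unadjusted limma p and the 3 most abundant of each compartment, those with the authors' p under 0.05, and Lars2, Gars and Kars. Values of other synthetases and of genes outside the 36 were added after they were seen. Promoters came from RefSeq GRCm38.p6, and transcript GC content and shared windows from GENCODE M21. Other pseudocounts, filters, scalings, GC correction, a replicate block and each library left out were tried. The members and lists were chosen with earlier results of these data known.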

Additional observations from a re-analysis of the deposited data

How the results depend on the processing

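The limits are depth, 2 libraries a group and Control replicate 1. With each library left out in turn the cytosolic median log2 difference ran from -0.11 to -0.064 (-0.084 with all 4) and the mitochondrial one from -0.27 to -0.058 (-0.14 with all 4), the extremes of the latter without Control replicate 2 and without Control replicate 1. With a minimum mean of 5 FPKM, which leaves fewer genes, the mitochondrial median was -0.051. Genes called by limma numbered 4, 2 with no filter on low values, 7 to 11 with a library left out and 7 with the replicate block and the GC trend removed. The cytosolic genes called stayed at 0 in each of these settings, and the mitochondrial ones ran from 0 to 1 with a library left out (Lars2 without Control replicate 1, where the spread comes from the ERβ scKO libraries alone). At the authors' p threshold of 0.01, 1 synthetase passed in place of 3. With the replicate block alone limma called 6 genes and no synthetase. In the submitters' labels each library number is shared by 1 Control and 1 ERβ scKO library. The numbers are not stated to pair the libraries, and the main fit did not use them. Across measured genes, the deviations of the 2 libraries numbered 1 from their group means correlated at 0.211. With 2 libraries a group, those numbered 2 mirror them and add nothing. Nars reversed to 0.049 without Control replicate 2 (range with a library left out -0.084 to 0.049), and Rars2 reversed to -0.039 without ERβ scKO replicate 2 (range -0.039 to 0.16) and to -0.000213 with the GC trend removed, alone or with the block. The cause was not tested. Of the other alternatives for the 16 genes with full values, 200 kept their direction and side of the threshold, though not always their size: Vars ran from -0.64 to -0.10, Aars2 from -0.81 to -0.21, Vars2 from -0.68 to -0.22, Farsa from -0.47 to -0.19, Dars from 0.089 to 0.26, Kars from -0.27 to -0.13 and Mars2 from -0.82 to -0.26 with a library left out.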
